A study of Rattus norvegicus with 32 samples.

Results

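The cytosolic ribosomal protein genes are the genes for the proteins of the large (Rpl) and small (Rps) subunits of the ribosome that translates nuclear-encoded mRNA. They were taken from the platform annotation as every probe whose only gene symbol began with Rpl or Rps followed by a number, by p for the stalk proteins or by a for Rpsa, and kinases of the Rps6k family (16 probes) and mitochondrial ribosomal proteins (70 probes) were left out. This gave 71 probes for 60 genes, of 33849 probes and 12573 named genes on the array. There were 46 probes for 39 genes of the large subunit and 25 probes for 21 genes of the small subunit, and 11 genes had 2 probes. A further 3 probes matched the symbols but were paired with another gene as well, and these were left out.

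The samples were surviving pyramidal neurons of the CA3 subfield of the hippocampus, collected by laser capture from adult male Sprague-Dawley rats, with cells that stained for the degeneration dye Fluoro-Jade left uncollected. The groups were TBI+MT (fluid percussion traumatic brain injury in rats given metyrapone at 100 mg/kg before injury), TBI+CB (the same injury after carbenoxolone at 30 mg/kg), TBI (injury with vehicle) and SHAM (surgery without injury, labelled untreated), each at 4 h and at 24 h. Metyrapone inhibits corticosterone synthesis, and both drugs inhibit the enzyme that regenerates active glucocorticoid inside cells. Each of the 8 groups held 2 pooled samples of RNA, each hybridised on 2 CodeLink arrays, giving 16 pools and 32 arrays. A pool can be of several rats, so the spread between pools is the only biological error these data carry, and p-values measure that spread with n = 2 pools a group.

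Ribosomal proteins are made in matched amounts and assembled with ribosomal RNA in the nucleolus. Their mRNAs are abundant in every growing or active cell and most of them carry a terminal oligopyrimidine (TOP) tract, a run of C and T beginning at the first transcribed base, through which the growth-regulating kinase mTOR controls their translation. Neurons depend on this supply for protein synthesis in the cell body and the dendrites, and surplus ribosomal proteins such as Rpl5 and Rpl11 can bind MDM2, the regulator of p53.

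To look for runs like the TOP tract in these rat genes, the bases around the annotated start of transcription were read from RefSeq for 48 of the 60 genes (build GRCr8). A TOP-like run was counted where a C was followed by at least 4 bases that were each C or T, on the transcribed strand only, with that C within 10 bases of the annotated start. Windows of 30 bases begin 15 bases before the start, and capitals mark the run. A run counted in this way need not begin at the annotated start, and that of Rpl23 lies wholly before it. The first 4 genes have a run and the last 3 have none by this rule. They were picked after their values were seen, and Rpl11 and Rpl3, without a run, also stood lower in TBI+MT than in TBI at 4 h.
Rps27 (chr2:177964592-177964621, minus strand): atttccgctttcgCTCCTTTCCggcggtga
Rpl23 (chr10:83272170-83272199, minus strand): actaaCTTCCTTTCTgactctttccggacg
Rpl35a (chr11:81235007-81235036, minus strand): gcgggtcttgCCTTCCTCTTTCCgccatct
Rps26 (chr7:1643390-1643419, minus strand): gagagccgccgggtCCTCTTTCgagtcttg
Rpl11 (chr5:153560788-153560817, minus strand): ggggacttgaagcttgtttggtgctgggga
Rpl3 (chr7:113507976-113508005, minus strand): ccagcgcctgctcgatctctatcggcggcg
Rps16 (chr1:92770643-92770672, plus strand): cctggaaaatcggtcggggtggccccaagc

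A run was present in 36 of the 48 windows (75%), against 28.9% of 33469 promoters of the same table. A run of 8 bases or more was present in 29 (60.4%), against 7.34% of all promoters. A missing run says only that these letters are not at the annotated start used here, since an annotated start can lie a few bases off the one in use.

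Levels are given as raw intensity divided by the median of the array, so that 1 is the intensity of the middle probe, and duplicate arrays were averaged to a value for each pool. Members differed little between duplicate arrays, with a median difference of 0.0765 on the log2 scale. Of the 60 genes, 43 (26 large, 17 small) had a probe that some group detected above background on each of its 4 arrays, and these entered the test. The remaining 17 genes were Rpl8, Rpl14, Rpl15, Rpl18, Rpl19, Rpl24, Rpl27a, Rpl35, Rpl36al1, Rpl39l1, Rpl41, Rpl6-ps1 and the acidic stalk protein Rplp2 of the large subunit, and Rps3, Rps13, Rps15a and Rps4x-ps9 of the small subunit. Over all members, 9 probes were above background on no array, that for Rplp2 among them. A low signal from such a probe can also come from its design. All 4 arrays were above background in every group for 24 of the 43 genes (13 large, 11 small) and in only 1 group for 3. The 24 genes, measured on all 32 arrays, were used for the subunit means. On the whole array 6420 probes had that property.

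The arrays differed in how much they detected. Detection above background ran from 26.2% to 66.0% of an array's probes, and the lowest share was in pool 1 of TBI+MT at 24 h. Across all 17596 probes tested, limma called none at an adjusted p under 0.05 in any of 11 comparisons (0% called), and the share with an unadjusted p under 0.05 lay between 1.85% (TBI against SHAM at 24 h) and 8.21% (TBI+CB against TBI at 24 h) in the 6 comparisons with TBI or SHAM. The drug groups at 24 h were the only groups in their run of slides, as the array identifiers group the slides, so drug and slide run cannot be told apart there. At 4 h both SHAM pools and pool 1 of TBI were in run 1. The drug pools and pool 2 of TBI were in run 2. Where a drug group is set beside SHAM at 4 h, the difference thus cannot be told apart from slide run. The comparisons of each drug with TBI share the TBI pools. Fewer cells of a type and less RNA per cell cannot be told apart in these pools.

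In pools from injured rats given metyrapone, the ribosomal protein genes stood below TBI at 4 h as a set. The mean log2 level of the 24 genes was 5.08 and 5.64 in the TBI+MT pools, against 5.95 and 6.70 in the TBI pools. It was 5.87 and 5.90 in the TBI+CB pools and 5.84 and 6.34 in the SHAM pools. Both TBI+MT pools thus lay below all 6 other pools of 4 h, and the difference from TBI was −0.96, or 0.514-fold. The large subunit (−0.97) and the small subunit (−0.95) differed from TBI to about the same degree, with no overlap of pools in either.

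**Figure D1:**
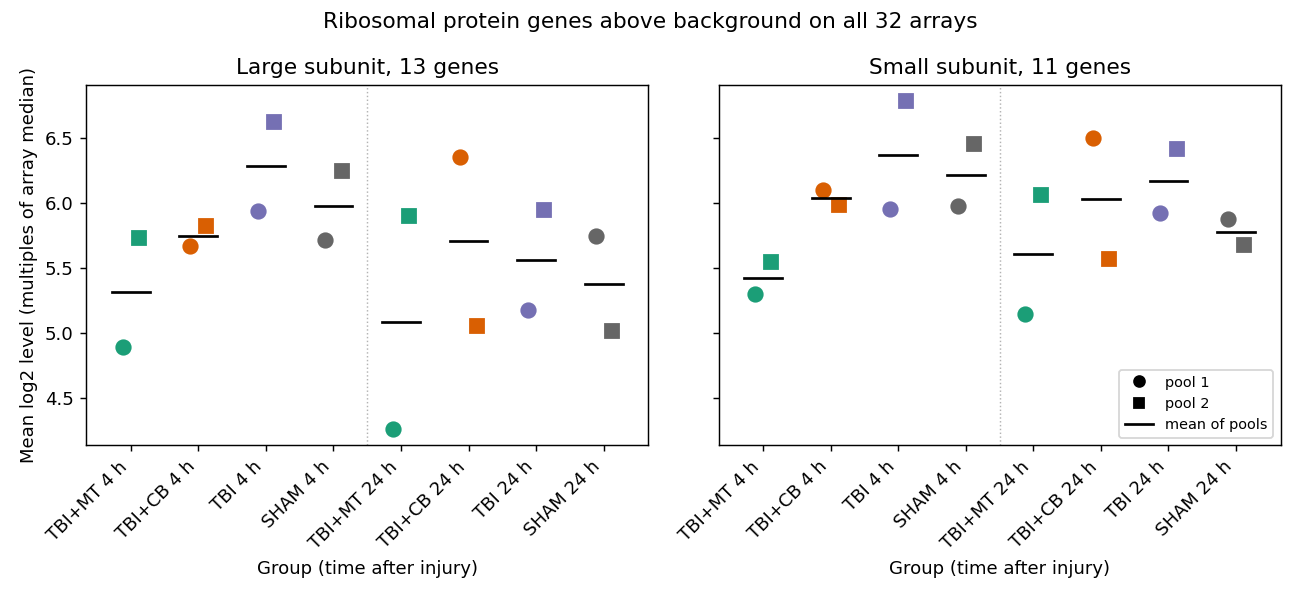
Mean log2 level (multiples of the array median, y axis) of the 13 large-subunit and 11 small-subunit genes above background on all 32 arrays, in each of the 8 groups (x axis); circles are pool 1, squares pool 2 and the bar is their mean. At 4 h both TBI+MT pools lie below both TBI pools in each subunit, while at 24 h the drug pools lie far apart.

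At 24 h the drug pools straddled the others. The mean log2 level of the 24 genes was 4.67 and 5.97 in TBI+MT, 6.42 and 5.29 in TBI+CB, 5.52 and 6.16 in TBI and 5.80 and 5.32 in SHAM. The pools of TBI+MT differed 2.47-fold from each other and those of TBI+CB 2.19-fold, against 1.57-fold in TBI. Pool 1 of TBI+MT at 24 h held the lowest of the 16 pool values for 16 of the 24 genes (44.6% of the 6420 probes), and pool 2 of TBI at 4 h held the highest for 14 (40.6%). Within groups, the median SD of a member was 0.717 on the log2 scale, against 0.577 for the 6420 probes.

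Set against the other well-measured probes in place of the array median, the members differed less between TBI+MT and TBI. The mean of the 24 genes stood 0.81 and 1.10 above the mean of the 6420 probes in the TBI+MT pools at 4 h, against 1.32 and 1.66 in the TBI pools, a difference of −0.53 with no overlap. The same quantity was 1.15 and 1.34 in TBI+CB and 1.36 and 1.65 in SHAM.

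**Figure D2:**
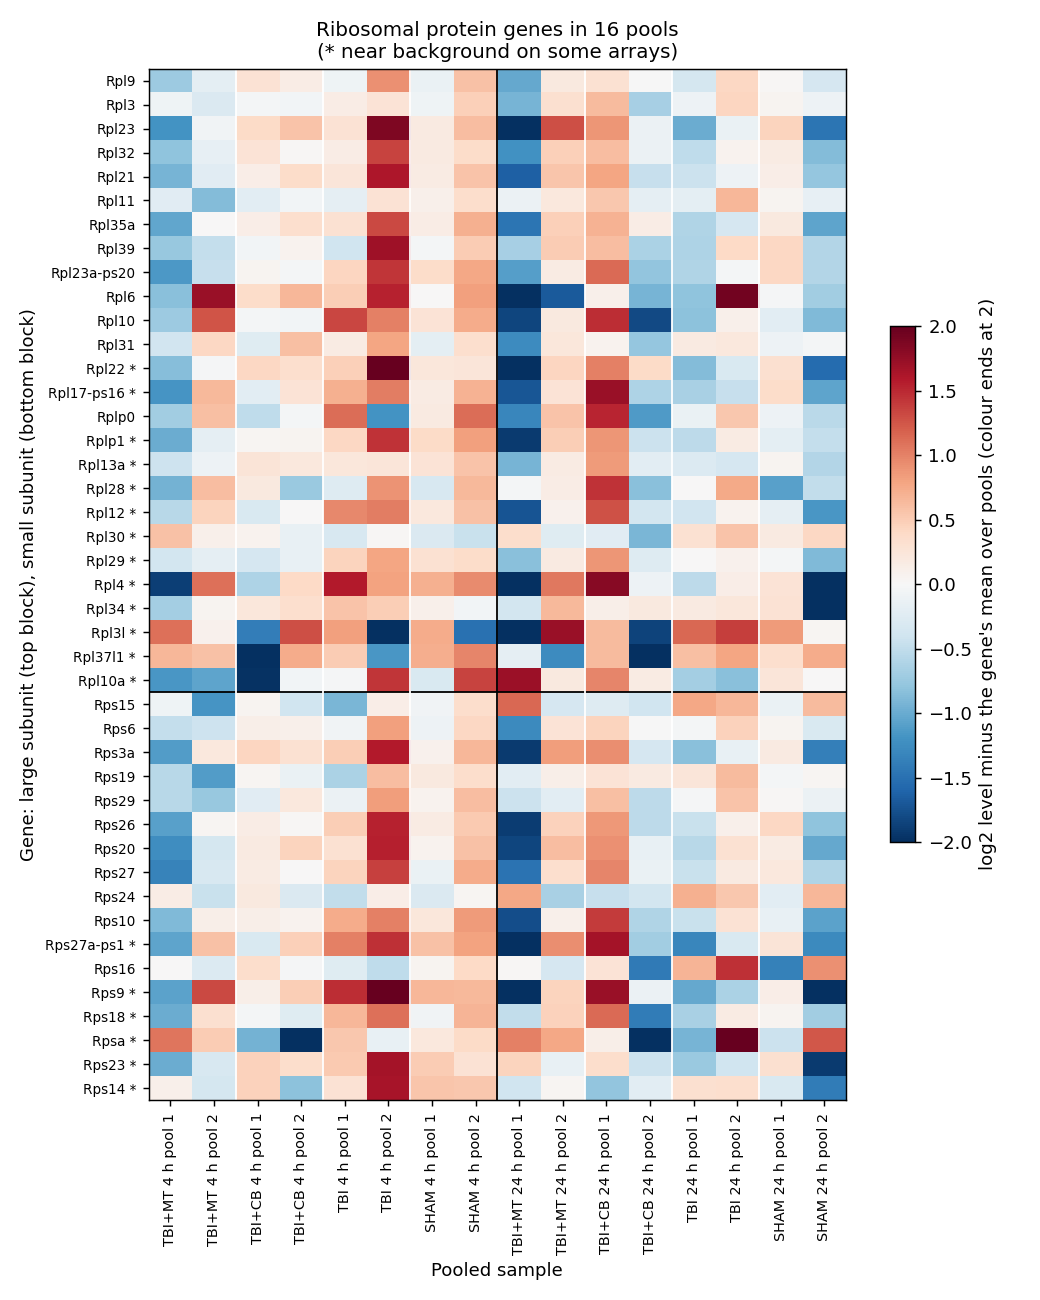
Level of the 43 tested genes (rows, large subunit above small subunit) in the 16 pools (columns), as log2 difference from the mean of the gene over pools; an asterisk marks genes near background on some arrays. Pool 1 of TBI+MT at 24 h held the lowest value of 16 of the 24 genes measured on all arrays, and pool 2 of TBI at 4 h the highest of 14.

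Against TBI at 4 h, 37 of the 43 genes stood lower in TBI+MT and 6 higher, with a median change of −1.04 (large −0.90, small −1.22), against a median of −0.40 and 70.4% lower over all probes tested. More than 2-fold lower were 23 genes, 12 of the large and 11 of the small subunit (25.1% of all probes), and in 29 both TBI+MT pools lay below both TBI pools (33.6% of all probes), while 2 stood higher without overlap (8.16%). Of the 24 genes, 22 stood lower (77.7% of the 6420 probes). limma called no member, with 4 at an unadjusted p under 0.05 (4.74% of all probes), which were Rps23, Rps27, Rpl23a-ps20 and Rpl10a. Rpl10a and Rps14 entered the test only because all 4 TBI arrays of 4 h were above background, which favours lower values in the groups set against TBI at 4 h, so nothing is read from their place in these counts. The 24 genes above background on all 32 arrays did not pass through 1 group. The other large-subunit genes over 2-fold lower were Rpl4, Rpl12, Rpl21, Rpl22, Rpl23, Rpl32, Rpl35a, Rpl39, Rplp1 and Rpl17-ps16, and those of the small subunit were Rps3a, Rps9, Rps10, Rps14, Rps18, Rps20, Rps26, Rps29 and Rps27a-ps1. Scaling changed the size of this difference: after quantile normalization 31 of 43 genes stood lower (median −0.60, with −0.01 over all probes), and after scaling to the probes above background on all 32 arrays the median was −0.49, with 0.15 over all probes. With slide run as a block, which leaves TBI pool 2 as the TBI sample of the same run as the drug pools, the median was −1.38. That of all probes was then −0.58. Without pool 2 of TBI the median of the members was −0.81, with −0.33 over all probes. In that setting 15 genes were over 2-fold lower (17.3% of all probes).

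Rps23, which sits at the decoding centre of the small subunit, had levels of 0.644 and 1.03 in TBI+MT at 4 h, against 1.84 and 4.04 in TBI. Its log2 change was −1.75 (SE 0.695, limma adjusted p = 0.736), with 2 of the 4 TBI+MT arrays above background. The pools of the groups did not overlap, and the SHAM pools (1.82 and 1.57) lay near the lower TBI pool. Rps27, a small-subunit protein with a zinc finger, had levels of 15.1 and 30.5 in TBI+MT, against 52.2 and 98.9 in TBI (log2 change −1.74, SE 0.703, adjusted p = 0.736). Both TBI+MT pools lay below both TBI pools and below the SHAM pools (35.1 and 63.9). Rpl23a-ps20, annotated as a pseudogene of Rpl23a, had levels of 15.6 and 25.0 in TBI+MT, against 46.5 and 93.0 in TBI (log2 change −1.74, adjusted p = 0.736). Its groups did not overlap either, and a probe for such a copy may also bind the parent transcript, so its source is uncertain.

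Among the genes with known roles outside or at the edge of the ribosome, Rps6, the target of the S6 kinases, had levels of 176 and 184 in TBI+MT at 4 h, 264 and 262 in TBI+CB, 233 and 434 in TBI and 229 and 327 in SHAM. Both TBI+MT pools lay below the other 6 pools. Rps3a, which lies by the mRNA exit of the small subunit, had levels of 72.9 and 183 in TBI+MT, 213 and 195 in TBI+CB, 224 and 477 in TBI and 167 and 250 in SHAM. Its TBI+MT pools lay below both TBI pools but overlapped SHAM. Rpl23, a large-subunit protein that can bind MDM2, had levels of 48.7 and 106 in TBI+MT, against 136 and 409 in TBI (log2 change −1.71, adjusted p = 0.736). Its pools did not overlap, and with TBI pools this far apart the SE was 1.08. Rpl11, which binds MDM2 together with Rpl5, had levels of 54.1 and 34.7 in TBI+MT, against 55.6 and 77.1 in TBI, a log2 change of −0.60 (adjusted p = 0.736). The groups were separate only by a small gap. Rpl5 had no probe among the members.

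Genes mutated in Diamond-Blackfan anaemia, in which red-cell precursors fail, include Rps19, Rps24, Rps26 and Rpl35a, and these did not behave alike. Rps26 had levels of 35.5 and 78.0 in TBI+MT at 4 h, 84.0 and 77.4 in TBI+CB, 107 and 220 in TBI and 84.6 and 109 in SHAM. Both TBI+MT pools lay below both TBI pools and both SHAM pools. The brighter Rpl35a probe had levels of 30.3 and 62.5 in TBI+MT, 68.3 and 78.1 in TBI+CB, 76.9 and 155 in TBI and 69.1 and 102 in SHAM, with both TBI+MT pools lowest. Rps19, a small-subunit protein needed for maturation of that subunit, had levels of 83.0 and 56.3 in TBI+MT, against 78.6 and 187 in TBI, and the groups overlapped. Rps24 had levels of 22.4 and 14.8 in TBI+MT, against 14.5 and 22.1 in TBI, and the pools of the groups crossed.

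Among further members, Rpl9, Rps20 and Rpl39 stood as the set did, while Rpl10 overlapped TBI. Rpl9 of the large subunit had levels of 203 and 292 in TBI+MT at 4 h, 408 and 370 in TBI+CB, 316 and 636 in TBI and 306 and 504 in SHAM. Its TBI+MT pools were the lowest of the 8. Rps20 of the small-subunit head had levels of 20.9 and 38.7 in TBI+MT, 55.7 and 67.3 in TBI+CB, 60.9 and 145 in TBI and 52.0 and 73.8 in SHAM. Here too both TBI+MT pools lay below all others. Rpl39, a short protein that lines the exit tunnel, had levels of 28.7 and 35.2 in TBI+MT, 47.1 and 51.1 in TBI+CB, 37.1 and 157 in TBI and 47.4 and 69.4 in SHAM. The TBI+MT pools were again the lowest, although the lower TBI pool lay just above them. Rpl10 had levels of 10.9 and 43.5 in TBI+MT and 17.7 and 17.5 in TBI+CB, against 45.9 and 36.6 in TBI and 21.9 and 30.4 in SHAM. Its TBI+MT pools were far apart and overlapped TBI.

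The stalk proteins, which recruit elongation factors to the large subunit, were unlike each other. Rplp1 had levels of 3.19 and 5.59 in TBI+MT at 4 h, against 8.46 and 17.2 in TBI, with no overlap. Rplp0, the anchor of the stalk, had levels of 4.59 and 11.3 in TBI+MT, against 16.2 and 3.24 in TBI. Its groups overlapped, and its 2 TBI pools were farther apart than the groups.

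The remaining 14 genes overlapped TBI or stood higher. Rps15, a protein of the head of the small subunit, had levels of 329 and 153 in TBI+MT at 4 h, against 185 and 383 in TBI, and the groups overlapped. Rps16, which reaches toward the tRNA in the P site, had levels of 9.97 and 8.20 in TBI+MT, against 8.42 and 7.02 in TBI, also with overlap. Rpl30, an RNA-binding protein of the large subunit, had levels of 4.77 and 3.38 in TBI+MT, against 2.52 and 3.21 in TBI (log2 change 0.50, adjusted p = 0.738). Here both TBI+MT pools lay above both TBI pools. Rpl3l, the paralogue of Rpl3 that replaces it in striated muscle, was above background on 20 of the 32 arrays and had levels of 2.28 and 1.13 in TBI+MT, against 1.88 and 0.264 in TBI, with overlap. Rpl3 itself, which lies at the peptidyl transferase centre, had levels of 139 and 121 in TBI+MT, against 164 and 179 in TBI, lower without overlap.

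**Figure D3:**
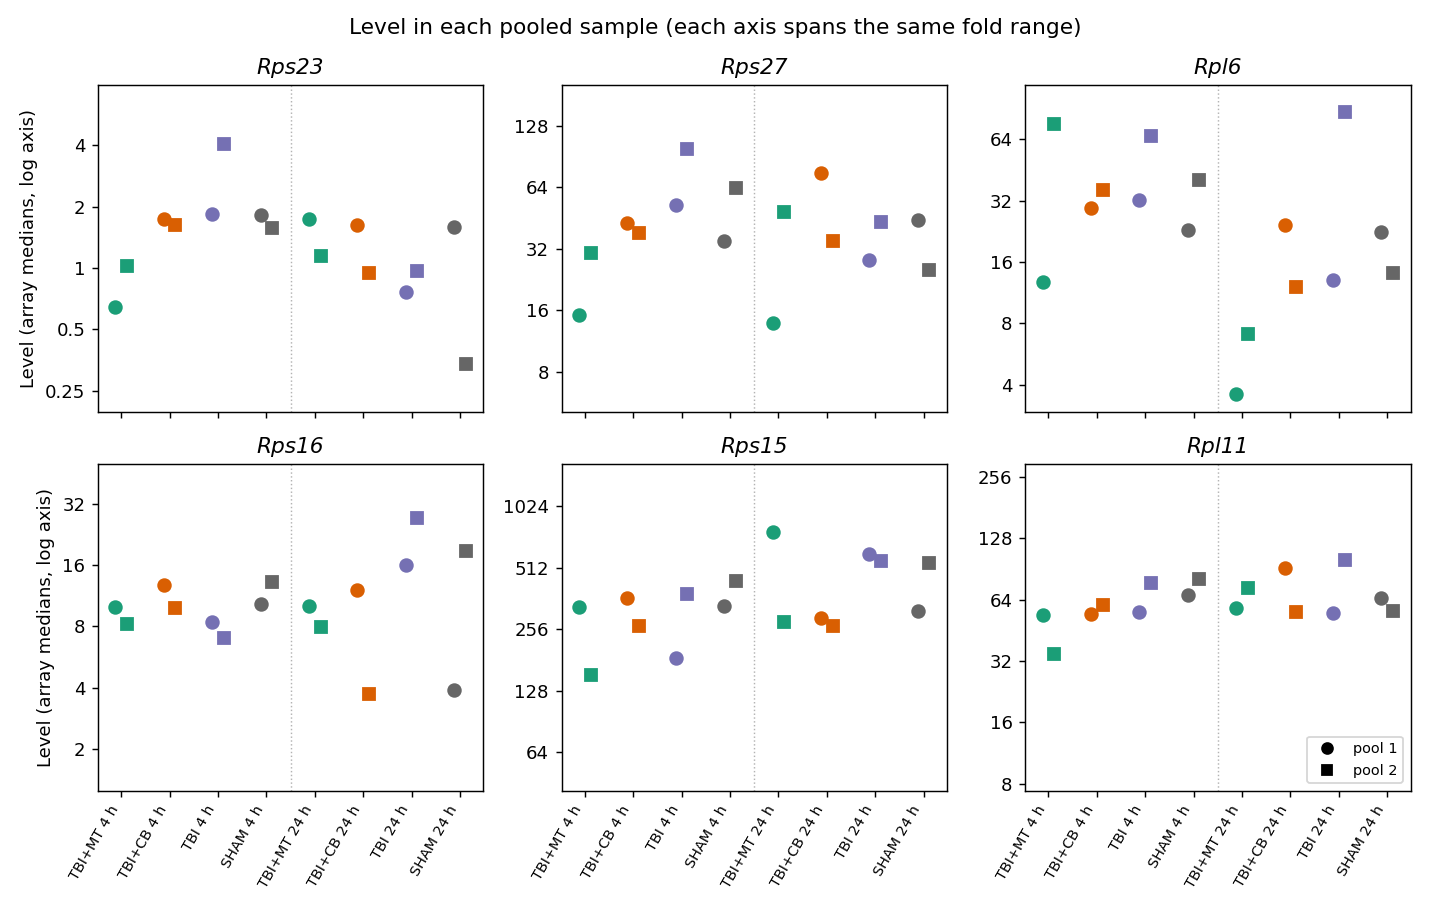
Level (multiples of the array median, log axis) of selected ribosomal protein genes in each of the 8 groups; circles are pool 1 and squares pool 2, and the genes are Rps23, Rps27, Rpl6, Rps16, Rps15 and Rpl11. The pools of Rps27 and Rps23 are lower in TBI+MT than in TBI at 4 h, while those of Rps15 overlap.

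Carbenoxolone was set against TBI in the same way. At 4 h in TBI+CB, 38 of the 43 genes stood lower (63.3% of all probes tested), 9 more than 2-fold (16% of all probes) and 20 with no overlap of pools (34.6%), with a median of −0.62 against −0.28 over all probes. Of the 24 genes, 21 stood lower (62.6% of the 6420 probes). Without pool 2 of TBI, 27 stood lower (median −0.13), against 59.1% of all probes and a median of −0.19. With slide run as a block 39 did (median −1.06), against 70.4% of all probes and a median of −0.39. After quantile normalization 31 stood lower, 5 over 2-fold (median −0.31, with 0.01 over all probes), and after scaling to the probes above background on all 32 arrays 29 did, 3 over 2-fold (median −0.27, with 0.07). limma called none (0% called), with no member and 3.45% of all probes at an unadjusted p under 0.05. The large-subunit means were apart, at 5.67 and 5.82 in TBI+CB against 5.94 and 6.62 in TBI, while the small-subunit means, at 6.10 and 5.98 against 5.96 and 6.78, overlapped. Rpl29, a heparin-binding protein of the large subunit, had levels of 1.76 and 2.00 in TBI+CB, against 3.04 and 3.84 in TBI (log2 change −0.87, SE 0.536, adjusted p = 0.957). Rpl10a, part of the stalk that releases spent tRNA, was not well above background in TBI+CB on any array, with levels of 0.157 and 0.595, against 0.605 and 1.67 in TBI, so no fold is given. The same held for Rps14 of the small-subunit platform. Both entered the test only through TBI at 4 h, and both are among the 9. Rps16 stood higher, at 12.7 and 9.84 in TBI+CB against 8.42 and 7.02 in TBI, with no overlap.

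Set side by side at 4 h, 34 of 43 genes stood lower in TBI+MT than in TBI+CB (65.3% of all probes), 20 without overlap (19.2% of all probes), with a median of −0.41 against −0.20. After scaling to the probes above background on all 32 arrays 26 stood lower (median −0.21, with −0.0020 over all probes), and without pool 1 of TBI+MT 26 did (median −0.22, with 0.09). limma called none, and no member had an unadjusted p under 0.05 (3.11% of all probes). The mean of the 24 genes was 5.08 and 5.64 in TBI+MT and 5.87 and 5.90 in TBI+CB. Both TBI+MT pools lay below both TBI+CB pools. Rpsa, the laminin-receptor precursor of the small subunit, stood the other way, with levels of 2.97 and 2.01 in TBI+MT against 0.731 and 0.336 in TBI+CB. It was not well above background on any TBI+CB array and was at least 2.36-fold higher in TBI+MT, counted against the lowest signal well above background on each array (adjusted p = 0.999). Its probe was above background on 21 of the 32 arrays, and a second Rpsa probe, above background on 12, was not tested.

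Injury alone was set against SHAM. At 4 h, 33 of 43 genes stood higher in TBI (69.1% of all probes), with a median of 0.37 against 0.33 over all probes. Of the 43, 9 were higher without overlap (36.5%) and 3 lower without overlap (7.58%). Rpl37l1, among the 3, entered the test only through SHAM at 4 h, which favours a lower value in TBI. Rpl10a and Rps14, among the 33, entered only through TBI at 4 h. Nothing is read from the place of these genes in the counts. limma called no member, and none had an unadjusted p under 0.05 (3.34% of all probes). Rpl22, an RNA-binding protein of the large subunit, had levels of 15.5 and 44.1 in TBI, against 13.1 and 13.2 in SHAM (log2 change 0.99, SE 0.864, adjusted p = 0.935). The TBI pools both lay above SHAM, but pool 2 was far above pool 1. Rps9, which lies at the mRNA entry of the small subunit, had levels of 26.0 and 44.3 in TBI, against 14.8 and 14.7 in SHAM (log2 change 1.20), without overlap. Rps15 stood at 185 and 383 in TBI against 333 and 443 in SHAM, with overlap, and Rps16 at 8.42 and 7.02 against 10.3 and 13.1, without. Without pool 2 of TBI, or with slide run as a block, 21 of 43 genes stood higher and the median was −0.02, with 0.20 over all probes. After quantile normalization 22 stood higher (median 0.01, with 0.03 over all probes).

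At 24 h, 35 of 43 genes stood higher in TBI than in SHAM (51% of all probes), 5 more than 2-fold (4.12%, Rps14 among them although not well above background in either group) and 7 without overlap (13.2%), with a median of 0.23 against 0.01. Without pool 2 of SHAM 22 stood higher (median 0.01, with −0.22 over all probes). Without pool 2 of TBI 20 did (median −0.08, with −0.08 over all probes). limma called no member, and none reached an unadjusted p under 0.05 (1.85% of all probes). The small-subunit means were apart, at 5.92 and 6.41 in TBI and 5.88 and 5.68 in SHAM, and the large-subunit means, at 5.17 and 5.95 against 5.74 and 5.01, overlapped. Of the small-subunit genes, 16 of 17 stood higher. Rps16 was high in TBI, at 16.0 and 27.3, against 3.89 and 18.7 in SHAM (log2 change 1.29, SE 0.730, adjusted p = 1.000). The SHAM pools were far apart, and pool 2 lay between the TBI pools. Rps15 stood at 598 and 553 in TBI against 316 and 543 in SHAM, with no overlap.

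**Figure D4:**
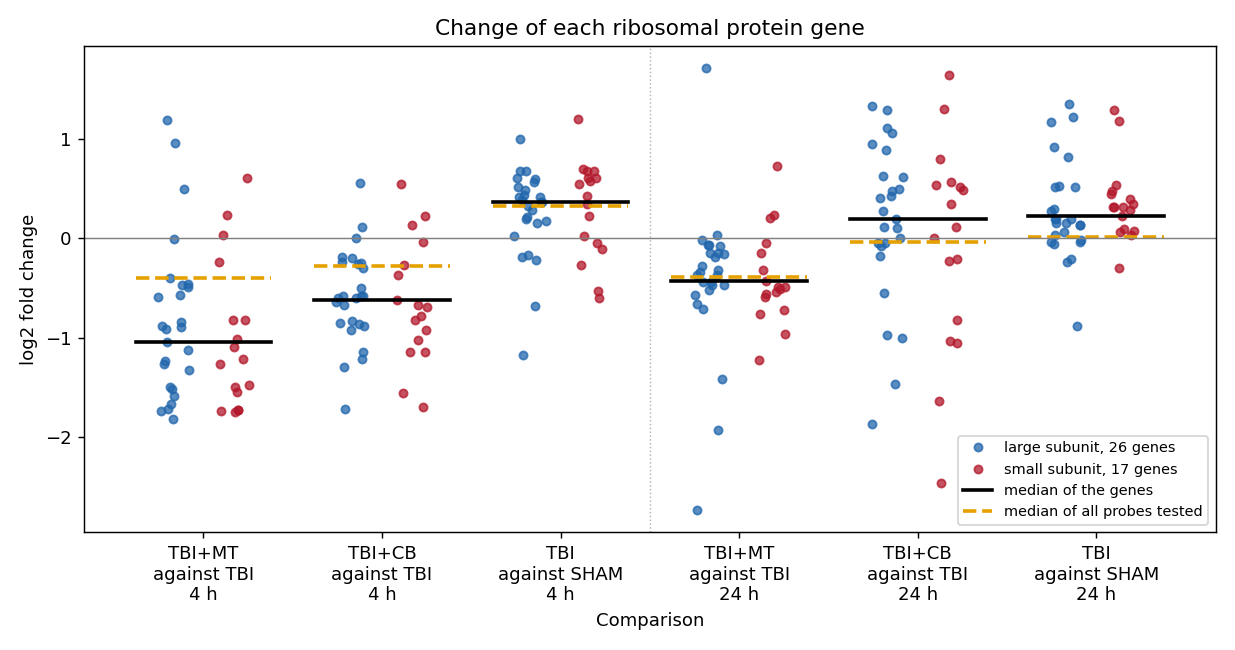
log2 fold change (y axis) of each of the 43 genes in the 6 comparisons of a drug with TBI and of TBI with SHAM at 4 h and 24 h (x axis); each point is a gene (blue for the large subunit, red for the small), the solid bar is the median of the 43 genes and the dashed bar that of all 17596 probes tested. In TBI+MT against TBI at 4 h, 37 of the 43 points lie below 0, while those of TBI+CB against TBI at 24 h lie on both sides.

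At 24 h, 38 of 43 genes stood lower in TBI+MT than in TBI (74% of all probes), 4 more than 2-fold (13.8%) and 6 without overlap (28.6%), with a median of −0.44 against −0.39 over all probes. The median was 0.45 without pool 1 of TBI+MT (0.06 over all probes) and −1.05 without pool 2 (−0.74). The direction of the median thus rested on pool 1. After scaling to the probes above background on all 32 arrays, 22 genes stood lower and 21 higher (median −0.053, with −0.01 over all probes), and after quantile normalization 32 stood lower (median −0.21, with −0.25). limma called no member, with 1 at an unadjusted p under 0.05 (5.52% of all probes). That was Rpl6, a large-subunit protein, with levels of 3.62 and 7.12 in TBI+MT against 13.0 and 87.4 in TBI (log2 change −2.73, SE 0.963, adjusted p = 0.816). The TBI pools differed more from each other than those of TBI+MT, and Rpl6 had the largest SD over the 16 pools of the 24 genes (1.24). Its second probe was above background on 4 arrays and was not tested. Most abundant members had 1 low and 1 high TBI+MT pool at 24 h. Rps3a had levels of 42.1 and 282 in TBI+MT, against 88.6 and 142 in TBI, and Rps6 had levels of 101 and 295 in TBI+MT, against 239 and 338 in TBI. Rpl23 had levels of 19.0 and 274 in TBI+MT, against 56.3 and 102 in TBI. In each of these the groups overlapped, with pool 1 of TBI+MT the lowest of the 4 pools. Rps15 ran the other way, at 769 and 277 in TBI+MT against 598 and 553 in TBI, with pool 1 the highest.

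Carbenoxolone gave no common direction at 24 h. Of 43 genes, 26 stood higher and 17 lower than in TBI (48.7% of all probes were higher), 6 more than 2-fold higher (14.3%) and 7 more than 2-fold lower (15.2%), with a median of 0.19 against −0.04. The median was −0.30 without pool 1 of TBI+CB (−0.56 over all probes) and 1.04 without pool 2 (0.60). limma called no member, with 2 at an unadjusted p under 0.05 (8.21% of all probes). These were Rps16, with levels of 12.1 and 3.75 in TBI+CB against 16.0 and 27.3 in TBI (log2 change −1.64, SE 0.730, adjusted p = 0.593), and Rpl30, with 2.69 and 1.69 in TBI+CB against 3.90 and 4.68 in TBI (0.499-fold, SE 0.456 on the log2 scale). In both, the TBI+CB pools lay below the TBI pools. Rps24 stood at 14.7 and 15.7 in TBI+CB, against 33.1 and 29.4 in TBI, and Rps15 at 290 and 264, against 598 and 553. In these the TBI+CB pools were close together and below both TBI pools. Rpl22 stood at 22.4 and 14.5 in TBI+CB against 6.12 and 8.97 in TBI (log2 change 1.28), without overlap. TBI+MT stood lower than TBI+CB in 33 of 43 genes (62.1% of all probes), 10 by more than 2-fold (22.5%) and 2 without overlap (10.3%), with limma calling none and 1 member at an unadjusted p under 0.05 (5.09% of all probes), Rpsa, at 2.84 and 2.42 in TBI+MT against 1.52 and 0.113 in TBI+CB. The median of −0.62, with −0.29 over all probes, was 0.065 without pool 1 of TBI+MT (0.11 over all probes). After scaling to the probes above background on all 32 arrays it was −0.23 (0.095 over all probes). Then 24 genes stood lower (46.2% of all probes), 5 over 2-fold (11.4%).

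The change with time was tested as the difference between the log2 changes at 24 h and 4 h. No member was called by limma (0% called) in the 3 interaction tests. The median difference was 0.52 for TBI+MT against TBI (0.00 over all probes), 1.08 for TBI+CB against TBI (0.25) and −0.08 for TBI against SHAM (−0.29). The smallest unadjusted p was that of Rpl10a in TBI+MT, with a difference of 3.52 (adjusted p = 0.979), and its probe was not well above background on any TBI array at 24 h, so this value has no measured base there. Rpl10a also entered the test only through TBI at 4 h, as did Rps14, which favours higher differences in both drug tests. Both are in the medians above, and nothing is read from their place in them.

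The TOP-like run was set beside these changes as a description. In TBI+MT against TBI at 4 h, 27 of 29 tested genes with a run stood lower, 17 of them more than 2-fold, with a median of −1.22, beside 70.4% and 25.1% of all probes. Rpl10a and Rps14, which entered the test only through TBI at 4 h, are among the 17. Nothing is read from their place in these counts. Of the 6 tested genes without a run (Rpl11, Rpl3, Rpl6, Rps16, Rps19 and Rpsa), 4 stood lower and none more than 2-fold, with a median of −0.48. In TBI+CB against TBI at 4 h, 26 of the 29 and 5 of the 6 stood lower, beside 63.3% of all probes. In TBI against SHAM at 4 h, 24 of the 29 and 2 of the 6 stood higher, beside 69.1%. Rpl10a and Rps14 are in the 26 and the 24 as well. In TBI+CB against TBI at 24 h, 21 of the 29 stood higher (median 0.35), and none of the 6 did (median −0.59), beside 48.7% of all probes. There the median of all members was −0.30 without pool 1 of TBI+CB and 1.04 without pool 2, and drug and slide run cannot be told apart. In TBI+MT against TBI at 24 h the medians were −0.44 with a run and −0.48 without, and in TBI against SHAM at 24 h 24 of the 29 and 6 of the 6 stood higher. The genes without a run are few. Their median SD between pools was 0.596 on the log2 scale, against 0.760 for the 29 with a run. The SDs spanned 0.363 to 1.41 without a run and 0.447 to 1.59 with a run. Rpl6 and Rpsa, both without a run, had high SDs (1.24 and 1.41), and Rpl6 was the most variable of the 24 genes between pools.

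For the genes with 2 tested probes, the probes gave the same direction in TBI+MT against TBI at 4 h for Rpl21 (−1.50 and −1.17), for Rpl35a (−1.32 and −1.20), and for Rplp1 (−1.52 and −1.37). They disagreed for Rps29, a zinc-finger protein of the small subunit, at −1.02 and 0.45. Other pairs could not be compared because only 1 probe passed, as for Rps15, Rps24 and Rpl28, or neither did, as for Rpl15. Of the 24 genes, the steadiest over the 16 pools were Rpl11 (SD 0.363 on the log2 scale) and Rpl3 (0.403), and most variable beside Rpl6 were Rpl23 (1.10) and Rpl10 (1.03), which joins the large subunit last and completes it.

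Other genes of protein synthesis and energy supply were counted in the same way, beside 70.4% of all probes lower. In TBI+MT against TBI at 4 h, 56 of 58 mitochondrial ribosomal proteins stood lower (median −1.03), as did 34 of 34 proteasome genes (−0.92), 56 of 57 respiratory chain genes (−1.03), 20 of 22 initiation factors (−0.98) and 28 of 30 ribosome biogenesis genes (−0.82). Of 14 S6 kinases and growth-control genes, 9 stood lower (−0.53). None was called by limma (0% called), and 0 to 4 genes of each list had an unadjusted p under 0.05. Rps6kb1, the kinase that phosphorylates Rps6, stood at 0.955 and 1.23 in TBI+CB against 4.83 and 4.70 in TBI at 4 h (adjusted p = 0.957), with no overlap. It was above background on 1 of the 4 TBI+CB arrays, so no fold is given. Npm1, a nucleolar assembly factor, had levels of 0.950 and 1.73 in TBI+MT, 0.381 and 1.57 in TBI+CB, 2.65 and 18.6 in TBI and 0.978 and 0.947 in SHAM at 4 h. Its TBI value rested largely on pool 2.

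Markers of other cells differed between some of these groups. The summed level of 8 endothelial markers was 25.1 in both TBI+MT pools at 4 h, 32.0 to 37.6 in TBI+CB, 48.1 to 52.0 in TBI and 42.7 to 84.7 in SHAM. That of 7 astrocyte markers was 154 to 268 in TBI+MT, 315 to 320 in TBI+CB, 351 to 687 in TBI and 228 to 441 in SHAM. The sum of 5 pyramidal-neuron markers was 255 to 277 in TBI+MT, 244 to 290 in TBI+CB, 288 to 321 in TBI and 260 to 306 in SHAM. At 4 h the sum of 8 microglial markers was 32.3 to 35.6 in TBI+MT, 33.4 to 50.7 in TBI+CB, 48.1 to 64.6 in TBI and 59.8 to 168 in SHAM. The sum of 6 interneuron markers was 79.4 to 82.8 in TBI+MT, 92.4 to 119 in TBI+CB, 94.9 to 136 in TBI and 82.6 to 127 in SHAM. That of 5 oligodendrocyte markers was 120 to 145 in TBI+MT, 158 to 206 in TBI+CB, 158 to 234 in TBI and 113 to 255 in SHAM. Each of these sums was lower in both TBI+MT pools than in both TBI pools, but not every marker was. Of the 8 endothelial markers, 5 stood lower and 3 higher, 1 of the 3 over 2-fold (70.4% of all probes were lower). Lower were 7 of 8 microglial, 5 of 6 interneuron and 4 of 5 oligodendrocyte markers. All 7 astrocyte and all 5 pyramidal-neuron markers were lower. At an unadjusted limma p under 0.05 stood 3 microglial, 2 interneuron and 2 endothelial markers, all lower (4.74% of all probes). No astrocyte, oligodendrocyte or pyramidal-neuron marker did, and limma called none. The sum of 8 microglial markers at 24 h was 112 to 175 in TBI+MT, 158 to 181 in TBI+CB, 134 to 150 in TBI and 39.2 to 71.4 in SHAM. The part of these cells in the ribosomal protein levels was not tested.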

How the data were processed

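Raw spot intensity was deposited for each of 32 CodeLink whole-genome rat arrays, as the authors exported it from CodeLink Expression Analysis 4.1.0.29054. Per the file headers this is 1 value a spot with no separate local background, and background subtraction is not given in the sources used here. The authors also deposited a ratio, the intensity over the array median with values under 0.01 set to 0.01, which was used as an alternative. Symbols came from the platform annotation, which names 16878 of 33849 probes with 1 gene. RNA had been amplified from pooled laser-captured neurons before labelling.

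Intensity was divided by the array median, floored at 0.1, and taken to log2, and duplicate arrays were averaged to 16 pools. A probe was tested if some group detected it above background on each of its 4 arrays (17596 probes). Spots masked or marked irregular were left out, which removed 8 arrays each for Rps13 and Rpl8. limma 3.58.1 in R 4.3.3 (with the data.table package, version 1.17.8) fitted all 8 groups without a block (residual df 8, prior df 3.88), with Benjamini-Hochberg adjustment over all probes, and the procedure was tested on simulated data. For a gene with several probes, the probe with the higher mean level was used. Slides of 3 runs were told apart by the array identifiers in the files, an assumption. With 2 pools a group the number of samples limits the precision.

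Members and lists were chosen with earlier results of these data known. Named genes were the 3 of smallest p on each side of each of 6 comparisons, the 5 highest and 5 lowest in level, the 3 most and 3 least variable, paralogue pairs and genes of known role, and further genes were named after their values were seen. Alternatives were quantile normalization, scaling to commonly detected probes, other floors and filters, single arrays, the replicate number or slide run as a block, an intensity trend, the 4 groups of a time alone and each pool left out. A normexp background correction was not run, as it needs a background value. The authors' own replicate filter, arrays of a group within 2-fold, was an alternative.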

Additional observations from a re-analysis of the deposited data

How the results depend on the processing

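limma called 0 members in every comparison and under every alternative run, but not 0 probes. The methods' filter on replicates leaves 10 members at 4 h and 2 at 24 h. With it, limma called 300 of 4359 probes in TBI+MT against TBI at 4 h. At 24 h it called 442 of 1413 in that comparison and 705 in TBI+CB against TBI. That filter keeps probes because their spread within groups is small, and limma tests against the same spread. These counts are therefore raised by the filter and are not read as numbers of changed probes. With slide run as a block it called 46 of 17596 in TBI+MT against TBI at 4 h. The median change of the members in TBI+MT against TBI at 4 h was −1.04. It was −0.49 with scaling to the median of the probes above background on all 32 arrays and −0.43 with the methods' filter on replicates. Without each pool in turn it lay between −1.54 and −0.77. At 24 h the median ran from −1.05 to 0.45 in TBI+MT against TBI, from −0.30 to 1.04 in TBI+CB against TBI, and from −1.28 to 0.065 in TBI+MT against TBI+CB when a pool was left out. Without both pools of lowest detection, chosen after seeing the data, it was 0.45 with metyrapone and 1.04 with carbenoxolone, each against TBI. The causes were not tested.

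Some single genes changed sign. Rpl10a in TBI against SHAM at 24 h was 0.21 and Rps23 in TBI+MT against TBI at 24 h was −0.46 on the second duplicate array alone, and Rps15 in TBI+CB against TBI at 4 h was −0.31 with slide run as a block. With a pool left out, Rps15 in that comparison ran from −0.31 to 0.74, Rpl3l from −0.87 to 1.96 there and from −0.23 to 2.60 in TBI+MT against TBI, Rpl34 from −0.080 to 2.51, Rpl23a-ps20 from −0.74 to 0.26 and Rps27a-ps1 from −1.06 to 0.46 in TBI against SHAM at 24 h, and Rps18 from −0.24 to 0.71 in TBI+MT against TBI at 24 h.

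Pools of the same number in different groups did not consistently deviate together when all probes tested were used. The correlation of pool 1 minus pool 2 over these probes ran from −0.56 to 0.56 over 28 pairs of groups, and 7 exceeded 0.1 while 14 lay below 0. It was not computed over the members alone. With the replicate number as a block the medians did not move (−1.04 in TBI+MT against TBI at 4 h) and 0 members were called. With slide run as a block, drug against TBI at 24 h could not be fitted, and the interaction tests could not be made from the 4 groups of a time alone. A normexp correction was not run. Between pools of a group, the mean of the members had a pooled SD of 0.546 on the log2 scale, and dim probes are limited by background.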
